A study of Rattus norvegicus with 6 samples.

Results

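The genes described here encode the machinery that copies DNA and the regulators that start S phase. They were chosen by symbol, with earlier results of these data known, 43 in all, from the MCM helicase to the cyclins of S-phase entry. A probe could be named for 40 of them, among 15284 genes that could be named. No probe was named Mcm5, E2f8 or Uhrf1. The RNA came from whole liver of male Sprague-Dawley (Crl:CD(SD)) rats, an outbred laboratory stock, 5 weeks old at purchase. Of the 6 animals, 3 were dosed with tBA, the solvent tert-butyl alcohol, at 1000 mg/kg/day and 3 with vehicle, and each liver had its own one-colour array. The labels named purified water as the vehicle in one place and corn oil in another, and gave the dosing period as 28 days in one and 9 weeks in another. All 8 hepatocyte markers were well above background on all 6 arrays.

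DNA replication starts when origins are licensed: ORC, CDC6 and CDT1 load the MCM helicase on DNA in G1 phase, and cyclin-dependent kinases with cyclin E then switch it on together with CDC45 and the GINS complex. Polymerases, the PCNA clamp and its loader RFC copy the strands, and ribonucleotide reductase and thymidylate synthase supply the nucleotides. E2F transcription factors, released from RB proteins, drive transcription of most of these genes. Adult hepatocytes are largely quiescent, so transcripts of this kind are low in resting liver and rise when hepatocytes re-enter the cycle, as they do after partial hepatectomy.

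Most replication genes that could be measured had lower signal in the livers of tBA-treated rats, by amounts too small or too variable for any single gene to pass the test across the whole array. Of the 40 genes with a probe, 30 were tested, meaning that the brightest probe of each exceeded background clearly on every array of 1 group or both; 29 of these were above background on all 6 arrays, and Mcm6 passed through the vehicle group. Of the 30, 27 had a lower mean with tBA (against 49.6% of all tested genes) and 3 a higher one, with a median log2 difference, tBA minus vehicle, of -0.37, against 0.0024 over all 11093 tested genes. Over the 29 measured on every array, the median was -0.35. The values are log2 signals relative to the 75th percentile of each array, so -1 is a halving of signal. Since the filter admits a gene that is bright in only 1 group, these counts describe the genes measured and not all 43. The list was chosen with earlier results of these data known, so setting its shares beside those of all genes is not an independent test.

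No replication gene passed a Benjamini-Hochberg adjusted p of 0.05 over 37647 probes in limma, in either direction, where the background was 0.0361% of genes called lower and 0.00901% called higher. At an unadjusted p under 0.05, 14 of the 30 were lower (46.7%) and 0 were higher, against 7.46% of all tested genes lower and 7.59% higher. The tBA and vehicle arrays did not overlap in 15 of the 30, all with tBA below vehicle, against 11.4% of all tested genes in that direction, and in 0 with tBA above, against 12.8%. With 3 arrays against 3, the exact two-sided permutation test of a single gene cannot go below p = 0.1. In bulk liver RNA, fewer cycling cells and less of these transcripts per cell cannot be told apart. The count of 14 was 4 with slide as a fixed block, against 3.75% of all probes lower in that fit, and 9 without vehicle replicate 1, against 5.38%.

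**Figure D1:**
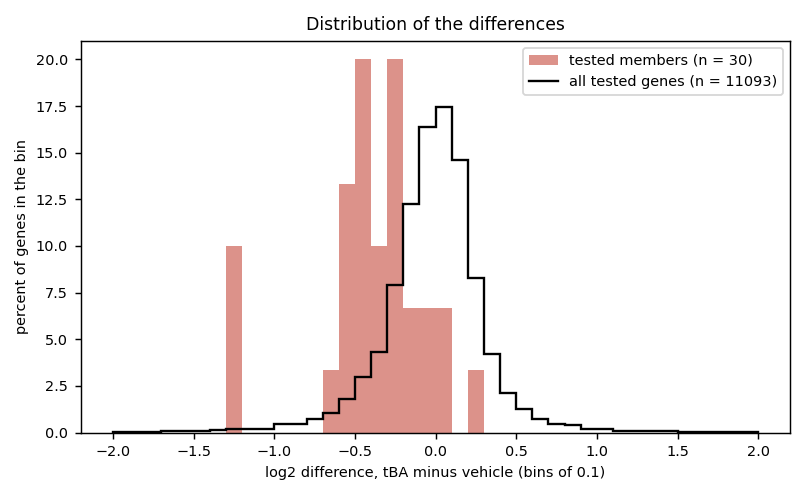
Percent of genes in each bin of 0.1 of the log2 difference, tBA minus vehicle, for the 30 tested replication genes (filled) and all 11093 tested genes (line). The median of the replication genes lies at -0.37 and that of all genes at 0.0024.

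The arrays lay on 2 slides, which were scanned on different days: slide 1 held tBA replicate 1 and the 3 vehicle arrays, and slide 2 held tBA replicates 2 and 3. Relative to each gene's vehicle mean, the median over the 30 genes was -0.34, -0.27 and -0.33 on tBA replicates 1, 2 and 3, and 0.078, -0.010 and -0.064 on vehicle replicates 1, 2 and 3. On tBA replicate 1, 21 of the 30 lay below every vehicle array, against 26% of all tested genes on that array. On tBA replicates 2 and 3 the counts were 19 and 20, against 32.3% and 32%. Within slide 1, with a treated arm of 1 array assumed to vary like vehicle, 7 of the 30 were lower at an unadjusted p under 0.05, against 3.95% of all probes in that fit.

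**Figure D2:**
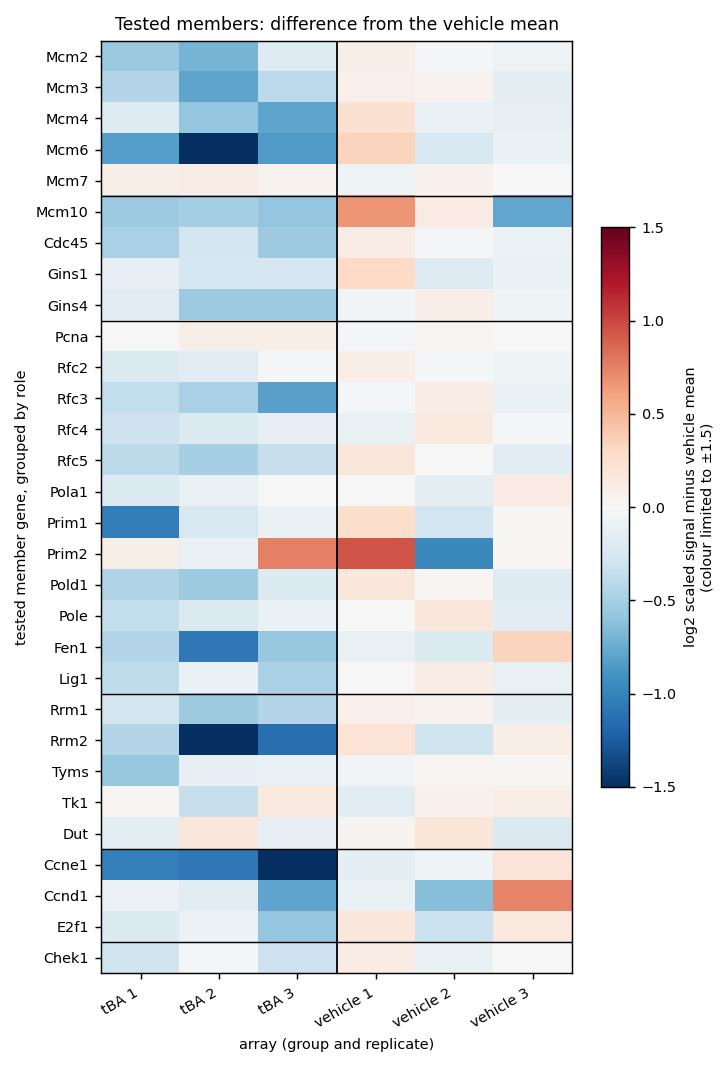
Log2 scaled signal of each of the 30 tested replication genes on each array, minus the mean of the 3 vehicle arrays, with genes grouped by role and the tBA arrays left of the line. Mcm6, Rrm2 and Ccne1 were 1.26, 1.23 and 1.21 lower in the mean with tBA, while Mcm7, Pcna and Prim2 were not lower.

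Among the regulators of S-phase entry, cyclin E1 stood furthest from vehicle relative to its error. Ccne1, whose product activates CDK2 at the G1 to S transition, was at -2.61, -2.65 and -3.11 on tBA replicates 1 to 3, against -1.72, -1.64 and -1.38 on vehicle replicates 1 to 3. The 3 tBA arrays lay about 1 log2 unit below the vehicle arrays, with no overlap. Its mean was -2.79 ± 0.28 with tBA and -1.58 ± 0.17 with vehicle (SD, n = 3 each), a 2.31-fold lower signal (log2 difference -1.21, SE 0.17, unadjusted p = 0.000315, adjusted p = 0.0984). With normexp background correction the difference was -0.82 and passed at an adjusted p of 0.0486; over the other alternatives the adjusted p ran from 0.0712 to 0.421. The other Ccne1 probe was well above background on 0 tBA arrays and 2 vehicle arrays and was not tested.

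E2f1, an activator E2F, was at -1.97, -1.85 and -2.35 with tBA, against -1.59, -2.08 and -1.62 with vehicle. The groups overlapped, because vehicle replicate 2 lay within the tBA range. The difference by the brightest probe was -0.29 (SE 0.19, adjusted p = 0.475). All 4 E2f1 probes had lower means with tBA, the other 3 by -0.38, -0.72 and -1.84, the last well above background on only 1 tBA array. Averaging the 4 probes gave -0.81, and the difference by the brightest was -0.14 without tBA replicate 3.

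Ccnd1, the mitogen-induced cyclin of G1 phase, was at 2.72, 2.64 and 2.02 with tBA, against 2.71, 2.17 and 3.55 with vehicle. The groups overlapped, with the lowest array a tBA one and the highest a vehicle one. The difference of -0.35 (SE 0.37, adjusted p = 0.658) turned to 0.020 without vehicle replicate 3 and was -0.084 within slide 1. Ccne2, the second cyclin E gene, was at -4.73, -5.17 and -5.12 with tBA, where 2 of 3 arrays were well above background, against -4.96, -5.45 and -5.27 with vehicle, where none was. These overlapping values are close to background, and Ccne2 was not tested.

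**Figure D3:**
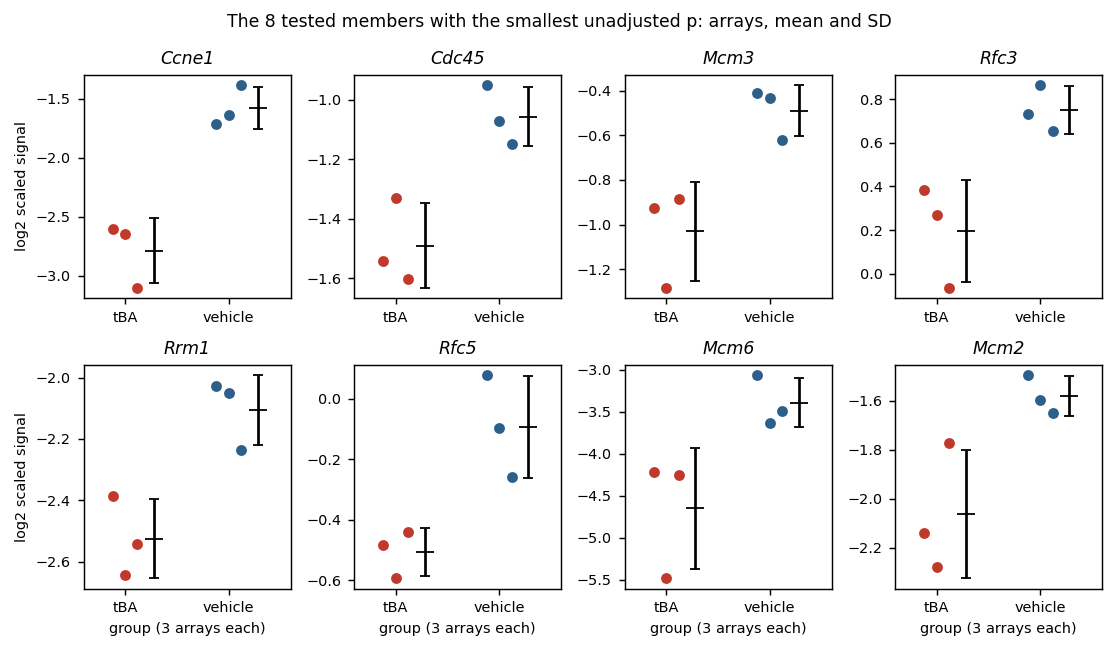
Log2 scaled signal on each array (points), with mean and SD, for the 8 tested replication genes with the smallest unadjusted p, tBA left and vehicle right, each panel on its own scale. In all 8 the tBA arrays lay below the vehicle arrays, with Ccne1 2.31-fold and Mcm6 2.39-fold lower.

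Origin licensing and helicase activation was the role group with the most genes too dim to test. Of 10 genes, 6 were too dim to test: Orc1, the largest ORC subunit, Orc6, Cdc6, Cdt1, Gins2 and Gins3. Orc1 was at -5.12, -5.50 and -7.54 with tBA, against -4.57, -5.45 and -6.44 with vehicle, well above background on 0 and 1 arrays. Cdc6, the MCM loader, was at -5.38, -5.09 and -6.11 with tBA, against -4.60, -4.52 and -5.50 with vehicle. In both genes the groups overlapped. The brighter Cdc6 probe was well above background on 0 tBA and 2 vehicle arrays and its second probe on 2 of each, so no bound on a fold is given. The GINS subunit Gins2 was at -6.30, -6.61 and -5.96 with tBA, against -5.47, -5.18 and -6.27 with vehicle. Gins3 was at -5.40, -5.44 and -5.43 with tBA, against -5.66, -6.87 and -4.94 with vehicle, overlapping in both directions.

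The 4 tested genes of this group, Cdc45, Gins4, Gins1 and Mcm10, act in helicase activation. The licensing genes Orc1, Orc6, Cdc6 and Cdt1 were not tested. All 4 tested genes had lower means with tBA, against 49.6% of all tested genes. At an unadjusted p under 0.05, 2 of the 4 were lower, against 7.46% of all tested genes. Cdc45, the helicase cofactor that marks active forks, was at -1.54, -1.33 and -1.60 with tBA, against -0.95, -1.07 and -1.15 with vehicle. The groups did not overlap, and the signal was 1.35-fold lower (log2 difference -0.43, SE 0.11, adjusted p = 0.216). Gins4, a GINS subunit, was at -1.45, -1.84 and -1.83 with tBA, against -1.33, -1.19 and -1.34 with vehicle (difference -0.42, SE 0.13, adjusted p = 0.263). Here tBA replicate 1 lay close to vehicle, and within slide 1 the difference was -0.16.

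Gins1 was at -2.29, -2.43 and -2.42 with tBA, against -1.86, -2.35 and -2.27 with vehicle, a difference of -0.21 (SE 0.15, adjusted p = 0.494). The 2 groups overlapped, and without vehicle replicate 1 the difference was -0.065. Mcm10, which helps activate the helicase, had 3 tBA arrays within a narrow band, at -1.42, -1.38 and -1.46, against -0.22, -0.76 and -1.66 with vehicle. Its difference of -0.54 (SE 0.34, adjusted p = 0.464) rested on the vehicle spread, at -0.21 without vehicle replicate 1 and -0.93 without vehicle replicate 3.

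The MCM helicase held the largest share of genes lower at an unadjusted p under 0.05 among the 6 role groups. These groups had only 1 to 12 tested genes each, so a single gene moves such a share widely. Of the 6 subunits of this ring, which unwinds DNA ahead of the polymerases, 5 had a probe. Of these, 4 passed that p with no overlap between groups: Mcm2, Mcm3, Mcm4 and Mcm6. Over all tested genes, 7.46% were lower at that p and 11.4% lay below vehicle without overlap. Mcm3 was at -0.92, -1.29 and -0.88 with tBA, against -0.41, -0.43 and -0.62 with vehicle. That is 1.46-fold lower signal (log2 difference -0.54, SE 0.14, adjusted p = 0.216). All 4 Mcm3 probes were lower, the 3 above background on all arrays by -0.54, -0.64 and -0.82.

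Mcm2 was at -2.14, -2.28 and -1.77 with tBA, against -1.49, -1.60 and -1.65 with vehicle (difference -0.48, SE 0.15, adjusted p = 0.251), and its 3 probes ranged from -0.48 to -0.78. Mcm4 was at -0.46, -0.85 and -1.05 with tBA, against -0.036, -0.37 and -0.40 with vehicle (difference -0.52, SE 0.18, adjusted p = 0.280). Of the tBA arrays, replicate 1 was the nearest to vehicle in Mcm4, and within slide 1 the difference was -0.19. The mean of its 2 tested probes gave -0.91. Mcm6 was at -4.22, -5.48 and -4.25 with tBA, where 2 of 3 arrays were above background, against -3.06, -3.63 and -3.49 with vehicle. This dim probe gave a 2.39-fold lower signal (difference -1.26, SE 0.37, adjusted p = 0.244). The difference was -0.32 with normexp background correction and -0.83 within slide 1.

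Mcm7 departed from its partners. Its brightest probe was at 2.10, 2.11 and 2.05 with tBA, against 1.92, 2.06 and 2.01 with vehicle, a difference of 0.087 (SE 0.084, adjusted p = 0.622). The groups overlapped, with vehicle replicate 2 between the tBA arrays. The other Mcm7 probe gave a difference of -0.25 (SE 0.10, adjusted p = 0.319), and the mean of both turned the sign to -0.081.

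Promoters are shown for the 4 tested genes with the smallest unadjusted p, because genes of this set are known targets of E2F factors and had lower means together. Each runs 5′ to 3′ on the gene's strand from 250 bases before to 50 after the start in RefSeq (GRCr8), in lower case, with capitals marking matches on either strand to the E2F letters TTTGGCGC, TTTGCCGC, TTTCGCGC or TTTCCCGC. The Ccne1 window is chr1:99927860-99928159 on the minus strand, that of Cdc45 is chr11:95689928-95690227 on the plus strand, that of Mcm3 is chr9:30733697-30733996 on the minus strand and that of Rfc3 is chr12:5836318-5836617 on the plus strand.
Ccne1 promoter: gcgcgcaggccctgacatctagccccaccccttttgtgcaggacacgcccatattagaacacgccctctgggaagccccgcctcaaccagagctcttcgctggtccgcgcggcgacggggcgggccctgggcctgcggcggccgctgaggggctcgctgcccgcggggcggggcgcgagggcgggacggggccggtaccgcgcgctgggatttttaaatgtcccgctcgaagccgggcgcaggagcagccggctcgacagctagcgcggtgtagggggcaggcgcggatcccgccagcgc
Cdc45 promoter: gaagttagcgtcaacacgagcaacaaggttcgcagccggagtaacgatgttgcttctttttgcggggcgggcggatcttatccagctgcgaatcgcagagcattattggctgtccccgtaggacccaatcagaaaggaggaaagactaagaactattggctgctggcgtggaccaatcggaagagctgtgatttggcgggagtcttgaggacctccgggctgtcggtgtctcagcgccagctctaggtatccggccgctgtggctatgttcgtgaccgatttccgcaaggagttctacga
Mcm3 promoter: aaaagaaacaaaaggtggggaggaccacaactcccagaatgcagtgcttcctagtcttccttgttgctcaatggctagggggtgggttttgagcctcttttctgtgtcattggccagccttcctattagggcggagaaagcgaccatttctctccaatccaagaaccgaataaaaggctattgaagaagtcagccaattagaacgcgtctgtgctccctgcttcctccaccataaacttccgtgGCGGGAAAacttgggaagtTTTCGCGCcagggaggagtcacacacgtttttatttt
Rfc3 promoter: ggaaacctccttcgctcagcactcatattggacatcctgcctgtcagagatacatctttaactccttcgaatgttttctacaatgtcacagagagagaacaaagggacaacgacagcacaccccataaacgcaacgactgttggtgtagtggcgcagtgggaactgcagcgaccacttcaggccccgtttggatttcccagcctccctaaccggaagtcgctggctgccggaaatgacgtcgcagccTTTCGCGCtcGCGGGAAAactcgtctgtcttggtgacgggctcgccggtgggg

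The Mcm3 window held 2 of these matches, and the Rfc3 window also held 2. These letters are not in the Ccne1 and Cdc45 windows. Of 34 replication genes with a promoter in the table, 15 held at least 1 E2F match (44.1%), against 2.14% of all 33469 promoters and 3.82% of the 9553 promoters of tested genes. All 5 genes of MCM helicase subunits with a promoter here, Mcm2, Mcm3, Mcm5, Mcm6 and Mcm7, held 2 or 3 matches. Mcm10, of another role group, held 0. The 11 tested genes with a match had a median difference of -0.27, and the 14 without had -0.40. Matches on opposite strands can overlap and were counted separately, as in Gins1, Mcm2, Mcm6 and 2 of the 3 in Mcm5. The CCAAT box, CCAAT, was in 55.9% of the 34, against 37.5% of all promoters and 38.2% of those of tested genes. The CHR element of cell cycle promoters, TTTGAA, was in 3 of the 34 (8.82%), against 18.3% of all promoters and 12.4% of those of tested genes. These are matches of letters within 300 bases and not measured binding sites.

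Of the fork genes, which polymerise, clamp and join DNA, 12 of 14 were tested and 10 had lower means, 5 of them at an unadjusted p under 0.05. Over all tested genes, 49.6% had lower means and 7.46% were lower at that p. Rfc3, a subunit of the clamp loader, was at 0.39, 0.27 and -0.066 with tBA, against 0.73, 0.87 and 0.65 with vehicle. The tBA arrays lay below all vehicle arrays, 1.47-fold in the mean (log2 difference -0.55, SE 0.14, adjusted p = 0.216), and the difference within slide 1 was -0.36. Rfc5, of the same complex, was at -0.48, -0.59 and -0.44 with tBA, against 0.078, -0.098 and -0.26 with vehicle (difference -0.41, SE 0.11, adjusted p = 0.235). Its second probe gave a difference of -0.55. The differences of the other subunits were -0.22 in Rfc4 and -0.13 in Rfc2, with adjusted p of 0.367 and 0.532.

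Fen1, the nuclease that trims Okazaki fragments, was at 1.57, 0.94 and 1.45 with tBA, against 1.91, 1.80 and 2.34 with vehicle. The signal was 1.62-fold lower with no overlap (log2 difference -0.70, SE 0.22, adjusted p = 0.257), and within slide 1 the difference was -0.44. Lig1, the ligase that seals those fragments, had a difference of -0.32 by one probe and -0.34 by the other (adjusted p = 0.314 and 0.310). Pold1, the catalytic subunit of polymerase delta, was at -1.49, -1.58 and -1.26 with tBA, against -0.88, -1.02 and -1.24 with vehicle. The lowest vehicle array and the highest tBA array almost met (difference -0.40, SE 0.14, adjusted p = 0.278).

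The remaining fork genes varied more or differed less. Pole, the catalytic subunit of polymerase epsilon, had a difference of -0.23 (SE 0.12, adjusted p = 0.399) and Pola1, of the priming polymerase alpha, one of -0.11 (SE 0.11, adjusted p = 0.621). The primase subunit Prim1 had a difference of -0.46 (SE 0.28, adjusted p = 0.442), which was -1.04 within slide 1 and -0.17 without tBA replicate 1. Its partner Prim2 gave a difference of 0.24 with the brightest probe and -0.38 with the other, with SE of 0.50 and 0.43. Pcna, the sliding clamp, had a difference of 0.064 (SE 0.080, adjusted p = 0.709) by one probe and 0.044 by the other. Pola2 and Pole2, subunits of polymerases alpha and epsilon, were dim on all 6 arrays. Pola2 was at -7.18, -7.06 and -7.33 with tBA, against -5.43, -5.71 and -6.30 with vehicle, and Pole2 at -6.97, -7.10 and -7.15 with tBA, against -7.03, -6.41 and -7.07 with vehicle. Below background these values give no fold.

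**Figure D4:**
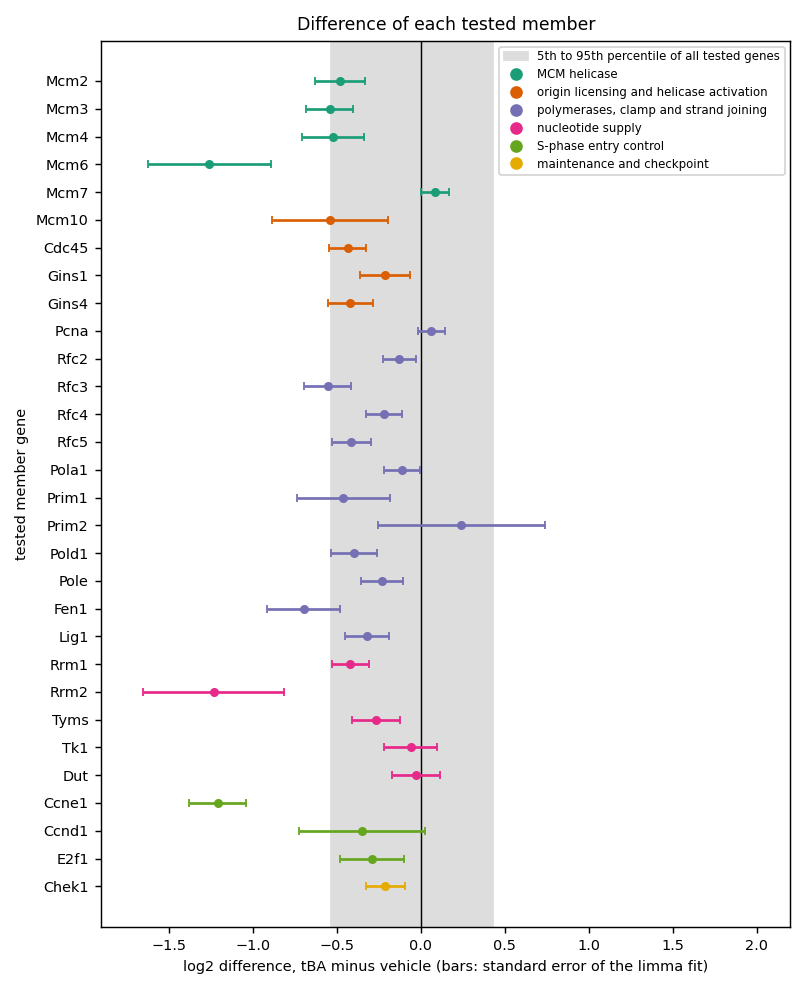
Log2 difference, tBA minus vehicle, of each tested replication gene by role, with the standard error of the limma fit as bars. The grey band is the 5th to 95th percentile of all tested genes, -0.54 to 0.43, and Mcm6, Rrm2 and Ccne1 lie below it with their error bars.

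Nucleotide supply split into genes that were lower and genes near no difference. Rrm1, the large subunit of ribonucleotide reductase, was at -2.39, -2.64 and -2.54 with tBA, against -2.03, -2.05 and -2.24 with vehicle. The signal was 1.34-fold lower with no overlap (log2 difference -0.42, SE 0.11, adjusted p = 0.220), and -0.21 with normexp background correction. Rrm2, the small subunit that is limiting in S phase, was at -0.11, -1.80 and -0.79 with tBA, against 0.53, 0.035 and 0.43 with vehicle. The tBA animals differed widely among themselves, with SD of 0.85 against 0.26 in vehicle. The mean was 2.35-fold lower (difference -1.23, SE 0.42, adjusted p = 0.275), -0.78 without tBA replicate 2 and -0.44 within slide 1, and the second tested probe gave -0.51.

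Tyms, thymidylate synthase, was at -1.93, -1.48 and -1.47 with tBA, against -1.40, -1.33 and -1.35 with vehicle. It did not overlap, but most of the difference of -0.27 (SE 0.14, adjusted p = 0.397) came from tBA replicate 1, and it was -0.12 without that array and -0.57 within slide 1. Tk1, thymidine kinase of the salvage route, was at -0.34, -0.71 and -0.22 with tBA, against -0.53, -0.30 and -0.26 with vehicle (difference -0.061, SE 0.16, adjusted p = 0.868). Dut, which removes dUTP, had a difference of -0.027 (SE 0.14, adjusted p = 0.940). Both genes overlapped between groups.

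Of the maintenance genes, Chek1, the kinase of the replication checkpoint, was at -2.07, -1.80 and -2.08 with tBA, against -1.66, -1.89 and -1.78 with vehicle. The groups overlapped, with a difference of -0.21 (SE 0.12, adjusted p = 0.417). Brca1, a factor of fork protection and repair, was dim on all 6 arrays, at -7.20, -7.19 and -6.52 with tBA, against -6.34, -6.83 and -7.22 with vehicle.

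Several genes were read by more than 1 probe. Of 17 with at least 2 tested probes, 13 were lower by every probe, 1, Pcna, was higher by both, and 3, Mcm7, Prim2 and Dut, had probes of opposite sign. The median SD within a group over the 30 genes was 0.21 with tBA and 0.15 with vehicle, against 0.15 with tBA and 0.135 with vehicle over all tested genes.

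Of 43 further replication factors, 32 were tested, 19 lower and 13 higher with tBA, with a median difference of -0.097. None passed the adjusted test in limma, with 4 lower and 4 higher at an unadjusted p under 0.05. Over all tested genes, 7.46% were lower and 7.59% higher at that p. The fork protein Wdhd1 had a difference of -0.79 (SE 0.18), the chromatin assembly subunit Chaf1b at -0.81 (SE 0.26) and the single-strand binding protein Rpa2 at -0.35 (SE 0.09). Positive differences were those of the polymerase delta subunit Pold4 at 0.64 (SE 0.15), the ORC subunit Orc3 at 0.33 (SE 0.08) and Rrm2b, the p53-regulated reductase subunit, at 0.40 (SE 0.11). Adjusted p of these 6 ran from 0.193 to 0.261.

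Of 29 cyclins, kinases, E2F factors and pocket proteins, 21 were tested, 10 lower and 11 higher, with a median of 0.012 and 0 past the adjusted test. At an unadjusted p under 0.05, 2 were lower and 1 higher, against 7.46% and 7.59% of all tested genes. Ccna2, the cyclin of S phase and G2, had a difference of -0.85 (SE 0.22, adjusted p = 0.216) with all 3 of its tested probes lower, and Ccnd2 at -0.40 (SE 0.11, adjusted p = 0.236). The pocket proteins Rbl2 and Rb1, which hold E2F factors in check, gave differences of 0.31 (SE 0.13, adjusted p = 0.314) for Rbl2 and 0.35 (SE 0.18, adjusted p = 0.381) for Rb1. The G1 kinases Cdk6 and Cdk4 had differences of -0.31 and -0.15, with adjusted p of 0.344 and 0.422. Mitosis genes, which act in the next stage of the cycle, had 24 of 24 tested lower, against 49.6% of all tested genes, with a median of -0.75. Of these, 21 were well above background on all 6 arrays. At an unadjusted p under 0.05, 19 were lower, against 7.46% of all tested genes. In 20 the tBA arrays lay below vehicle without overlap, against 11.4%. The mitosis list, like the others, was chosen with earlier results of these data known. The kinetochore gene Nuf2 was the 1 that passed the adjusted test (limma adjusted p = 0.00624). It entered the test only through vehicle, being well above background on 0 tBA and 3 vehicle arrays. Its signal was at least 2.91-fold lower with tBA, a bound set by the lowest signal well above background on each tBA array. With only the probes above background on all 6 arrays, 0 probes of any gene were called.

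Marker lists of other cell types differed in both directions, and their part in the result was not tested. T and NK cell markers had 7 of 9 tested lower with tBA, and their summed scaled signal over 12 genes was 3.07 to 3.94 on the tBA arrays, against 3.70 to 5.24 on the vehicle arrays, with Cd5 not above background on any array. B cell markers had 4 of 4 lower, with sums of 1.80 to 2.21 with tBA, against 2.43 to 2.53 with vehicle. Macrophage markers had 7 of 8 lower, with overlapping sums of 100.7 to 107.4 with tBA and 101.2 to 128.4 with vehicle. The T and NK, B cell and macrophage lists had 0 calls in limma, with 2, 1 and 0 genes lower at an unadjusted p under 0.05. Over all tested genes, 49.6% had lower means and 7.46% were lower at that p. Hepatocyte markers had 2 of 8 lower, with sums of 3479 to 3666 with tBA and 3479 to 3798 with vehicle, and erythroid markers 2 of 7 lower, with sums of 611.9 to 884.5 with tBA and 589.9 to 825.3 with vehicle. Stellate cell markers had 7 of 7 lower, with sums of 20.5 to 27.2 with tBA and 25.4 to 31.3 with vehicle. Endothelial markers had 1 of 5 lower, and their sums were higher with tBA and did not overlap, at 50.9 to 53.3 with tBA and 43.2 to 48.8 with vehicle. Neutrophil markers had 0 of 3 tested lower, with sums of 2.29 to 2.46 with tBA and 1.37 to 2.34 with vehicle, and Elane and Ngp not above background on any array. Bile duct markers had 2 of 5 lower, with overlapping sums of 1.49 to 2.37 with tBA and 1.76 to 1.98 with vehicle.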

How the data were processed

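Total RNA of 6 livers, labelled with Cy3, was read on one-colour Agilent arrays of 61657 probes. The deposited intensity of each probe came from Feature Extraction 10.7.1.1 by Agilent; the file headers name it and the rn4 build. The deposited series table holds a linear ratio, the processed signal divided by about the 75th percentile of its array, with the scaling step not given in the sources used here. On each array 61.5% to 66.9% of probes were well above background, none was saturated, and 3 to 16 outlier-marked spots were treated as missing. The number of arrays limits the precision, and the p-values set each difference against the spread between arrays. Each animal had its own array, so that spread joins variation of animals, arrays and slides.

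The measure was the log2 of the deposited processed signal minus the array's 75th percentile. Probes that cleared background on every array of 1 group or both were tested, 37647 in all, with limma 3.58.1 (lmFit, eBayes; R 4.3.3) and Benjamini-Hochberg adjustment over them. Accessions were matched to RefSeq (GRCr8), which named 27460 probes with 15284 symbols, and a gene was read from its probe with the highest mean signal. Every member may be named, with per-array values for up to 4 tested members of each role by smallest p and for those with 1 group entirely at background level. Up to 6 genes are named of each pathway list, and promoters are those of the 4 smallest p. Only Nuf2, the 1 gene past the threshold, is named from the mitosis list. The members and lists were chosen with earlier results of these data known. The fit was tested on simulated data with known changes. Alternatives covered background correction, scaling, filters, probe choice, slide and replicate blocks and each array left out; normexp used median signals, as mean signals were not used here. The planned search of protein motifs was not run, as no protein table was used here. Permutation tests used scipy 1.17.1, and figures Python 3.11.15 and matplotlib 3.10.9.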

Additional observations from a re-analysis of the deposited data

How the results depend on the processing

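The count of replication genes past the adjusted test stayed at 0 under 20 of 21 alternatives and was 1 with normexp background correction, where Ccne1 passed. The median difference of -0.37 stayed negative under all 21: it was -0.29 with normexp and -0.30 with median centring, and -0.41 to -0.31 when each array was left out in turn. The count of 14 lower at an unadjusted p under 0.05 was 4 with slide as a fixed block and 7 within slide 1, which both rest on tBA replicate 1 as the treated arm, and 9 to 13 when each array was left out, lowest without vehicle replicate 1. With the replicate block it was 13, and no replication gene was called. The calls over all probes came to 6 there, against 26 higher and 16 lower as reported. Arrays sharing a number correlated at -0.064, -0.063 and 0.016 in their deviations from the group means. These values show no pairing by number in the signals, and cannot tell whether animals were paired in handling. The cause of these shifts was not tested; fewer arrays entered the slide 1 and left-out fits, while the fixed block used all 6. Of 629 values of the 30 tested genes under the alternatives, 14 changed sign, in Tk1, Dut, Mcm7, Prim2 and Ccnd1. Tk1 was at 0.013 with median centring and 0.027 with slide as a fixed block and within slide 1. Dut was at 0.047 with median centring and 0.037 by the mean of its probes, where Mcm7 was at -0.081 and Prim2 at -0.069. With 1 array left out, Tk1 ran from -0.16 to 0.084, Dut from -0.13 to 0.061, Prim2 from -0.24 to 0.71 and Ccnd1 from -0.67 to 0.020. Over all probes, 26 were called higher and 16 lower as reported, and the calls in both directions came to 57 with normexp, 68 with an intensity trend, 64 with 1 floor, 20 with slide as a fixed block, 0 within slide 1, 18 with no filter and 0 with probes above background on all 6 arrays. When each array was left out they ran from 6 to 45. Signal near background limits the 10 untested genes and Mcm6.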
